A study of Oryza sativa Japonica Group with 8 samples.

Results

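The strong root loci are 179 of the 31187 loci in a table of rice gene expression. They were selected on their measured levels: at least 50 FPKM (the number of sequenced fragments, scaled to transcript length and to the size of the library) in roots sampled before flowering, and there at least 20 times the level of any flower, leaf or seed library, with 1 FPKM added to each value. That choice fixes that they are high in this root library and low in the 6 others, called the contrast libraries, and those levels are given as a description. Poly(A) RNA came from greenhouse plants of Oryza sativa ssp. japonica. The 8 libraries were made from flower buds, from flowers of the flowering day, from milk grains, from mature seeds, and from flag leaves and roots of an early and a late stage. Per the labels' protocols, early material mixed stages from panicle initiation up to the eve of flowering, and late material mixed stages past the flowering day. Leaves and roots of these stages are called early leaves, late leaves and early roots here. The fourth of these libraries, which the labels give as roots sampled after flowering, is called the library labelled R2, and it had no part in the choice. Each group held 1 library, so no value below has a replicate error, no test was possible, and each comparison is between libraries.

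Roots take up water and mineral nutrients, anchor the plant and exchange compounds with the soil. In rice, which often grows in flooded soil, the outer root layers and the endodermis form barriers that control what enters the vascular tissue, and membrane transporters in these layers carry nutrients across them. Genes used mainly in roots commonly encode such transporters, cell wall enzymes, peroxidases and small secreted proteins. Plant genomes also carry many gene families as neighbouring copies along a chromosome. The deposited table pairs its locus identifiers with no gene names, and 0 of them matched the RefSeq gene table at hand, so no role can be given to any single locus below and root or leaf marker genes could not be looked up. Loci are given by identifier and by position on the MSU Rice Genome Annotation Project Release 7, as the table writes them. Whether a start counts from 0 or 1 is not stated.

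The library labelled R2 did not look like a second root library. A 4-fold difference, with 1 FPKM added to each value and 5 FPKM reached in either library, set it apart from late leaves at few of 13837 loci: it was the higher one at 18 (0.130%) and the lower one at 26 (0.188%). From early roots it differed widely, being the higher one at 2291 of 16269 loci (14.1%) and the lower one at 2596 (16.0%). It is called by its label throughout, and no result below rests on it as a root sample. Each of the 8 libraries summed to between 569819 and 611306 FPKM; their read depth is unknown.

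**Figure D1:**
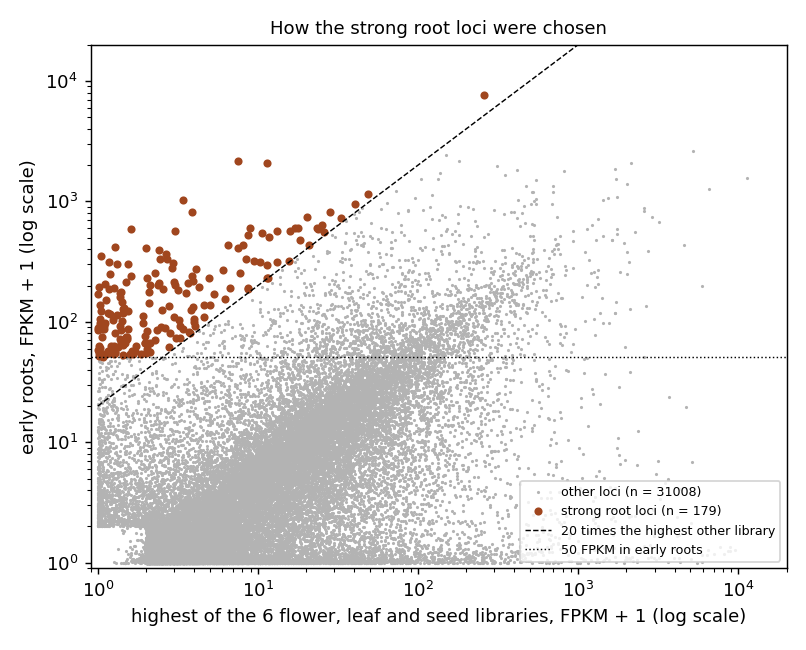
Level in early roots (FPKM + 1, log scale) against the highest level among the 6 flower, leaf and seed libraries (FPKM + 1, log scale), 1 point per locus. The dashed line is the 20-fold limit and the dotted line the 50 FPKM limit; the 179 strong root loci lie above both.

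In early roots the strong root loci ran from 50.1 to 7605 FPKM, with a median of 137. There were 69 members below 100 FPKM and 5 above 1000. Together they took 8.65% of the summed FPKM of that library, and 17 of its 100 most abundant loci were members. Their share in the contrast libraries was lowest in milk grains, at 0.0346%, and highest in early leaves, at 0.109%. The single locus XLOC_000386 held 259 of the 631 FPKM summed over members in early leaves and 164 of the 533 in late leaves. The order of the leaf shares thus rests largely on that locus. In a bulk sample, a lower level can come from fewer cells that use a gene or from less RNA per cell, and these cannot be told apart.

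The most abundant member was also the most abundant locus of the whole root library. This locus, XLOC_000386 (chromosome 1, 4646426 to 4648260), had 7605 FPKM in early roots. It had 259 FPKM in early leaves, 164 in late leaves, 66.0 in flower buds, 81.7 in flowers, 14.0 in milk grains, 48.9 in mature seeds and 92.6 in the library labelled R2. It was thus detected in every organ and was a root locus by degree. It alone held 15.2% of the summed level of the members and 1.32% of the summed FPKM of the library, and the 10 most abundant members held 36.2% of the members' sum.

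The next members in order of level were low in most other libraries and had a few FPKM or more in milk grains. XLOC_066173 (chromosome 9, 14479022 to 14479844) had 2170.0 FPKM in early roots. Its levels were 0.711 FPKM in early leaves, 0.0714 in late leaves, 0.214 in flower buds, 0.107 in flowers, 6.54 in milk grains, 0.235 in mature seeds and 1.32 in the library labelled R2. Apart from early roots, only milk grains and the library labelled R2 passed 1 FPKM at this locus. XLOC_026511 (chromosome 2, 22509601 to 22510611) had 2082 FPKM in early roots, 10.4 in milk grains, 0.647 in flower buds and 0.378 in early leaves. It had 0.264 FPKM in mature seeds, 0.193 in the library labelled R2, 0.0549 in flowers and 0.0388 in late leaves. Milk grains came next after early roots at both loci.

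Other abundant members kept a measurable level in leaves. XLOC_003388 (chromosome 1, 43096303 to 43097974) had 1156 FPKM in early roots, 47.9 in late leaves, 29.7 in the library labelled R2 and 14.7 in early leaves. Its flower and seed levels lay between 3.02 FPKM in milk grains and 5.98 in flowers. XLOC_001806 (chromosome 1, 23447019 to 23450935) had 951 FPKM in early roots, 39.5 in early leaves and 9.36 in late leaves. The leaf library with the higher level was thus the later one at the first of these loci and the earlier one at the second. XLOC_041840 (chromosome 5, 801086 to 803464) had 732 FPKM in early roots, 32.1 in late leaves and 15.9 in early leaves. XLOC_032319 (chromosome 3, 10080247 to 10083641) had 740 FPKM in early roots and between 5.25, in mature seeds, and 19.1, in early leaves, in the 6 contrast libraries. XLOC_027264 (chromosome 2, 32204391 to 32205335) had 822 FPKM in early roots and 27.2 in flower buds, its highest level elsewhere. The last of the 10 most abundant members, XLOC_019038 with 1021 FPKM in roots and XLOC_026513 with 808, are described below with the spans and runs they belong to.

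The members split by what was left outside the root. In 82 of them (45.8%) all 6 contrast libraries were below 1 FPKM, in 58 the highest of the 6 lay from 1 to below 5 FPKM, and in 39 it was at least 5 FPKM. The nearly silent 82 had a median of 86.9 FPKM in early roots and the 39 a median of 503. This order follows in part from the 20-fold limit, since a locus with 5 FPKM elsewhere needed over 100 FPKM in roots to be chosen. The highest of the 6 libraries was milk grains in 49 members, late leaves in 48, early leaves in 30, mature seeds in 23, flower buds in 16 and flowers in 11. The other 2 members were listed at 0 in all 6. Among the 82 nearly silent members milk grains were highest in 33, with a median of 0.122 FPKM there. Their median in the other 5 contrast libraries lay between 0.0247 FPKM, in flowers, and 0.0487, in early leaves. Among the 39 members with a level of at least 5 FPKM elsewhere, late leaves were highest in 13 and early leaves in 9. With unknown depth, levels far below 1 FPKM cannot be given a precision.

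**Figure D2:**
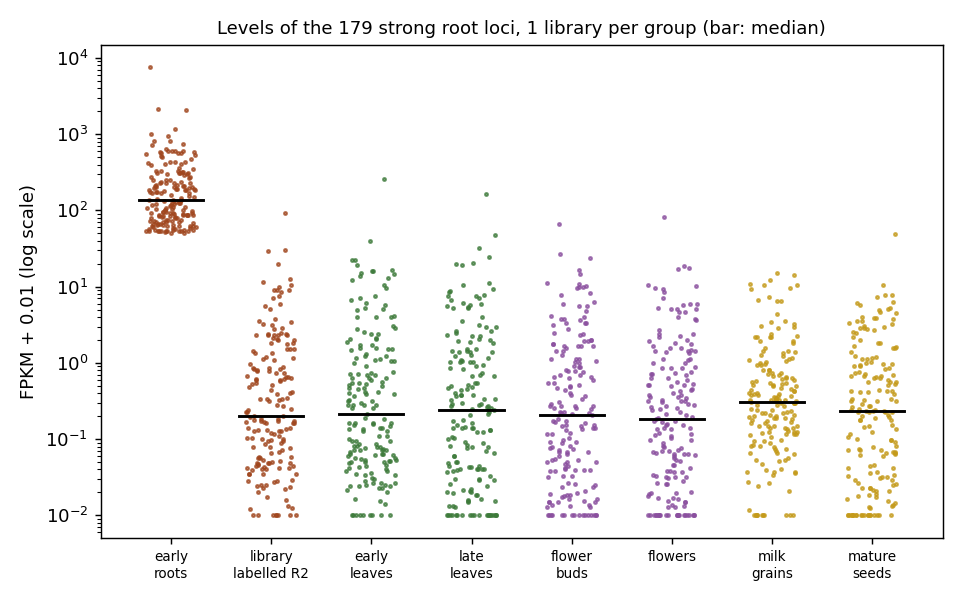
Levels of the 179 strong root loci (FPKM + 0.01, log scale) in each of the 8 libraries, 1 point per locus, with a bar at the median. The medians are 137 FPKM in early roots and between 0.172 and 0.296 FPKM in the 6 contrast libraries, and 0.193 FPKM in the library labelled R2, which was not used in the choice.

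The ratio of early roots to the highest contrast library, both with 1 FPKM added, ran from 20.1 to 366, with a median of 49.4, and 36 members reached 100. The highest ratio belonged to XLOC_066808 (chromosome 9, 22699919 to 22700959), with 591 FPKM in early roots and 0.616 in milk grains, its highest level elsewhere. XLOC_005905 (chromosome 1, 33181339 to 33181729) had 351 FPKM in early roots and no more than 0.0466 FPKM in any contrast library, a ratio of 336. XLOC_013989 (chromosome 11, 24299683 to 24307938) had 416 FPKM in early roots and 0.283 in milk grains, a ratio of 325. None of the 3 exceeded 0.109 FPKM in the library labelled R2.

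At the edges the values ran on without a gap. Just inside the level limit lay XLOC_002331 with 50.1 FPKM, XLOC_002232 with 51.0 and XLOC_029619 with 52.3 in early roots. Just outside it lay XLOC_003657 with 49.4 FPKM, XLOC_058840 with 49.1 and XLOC_054980 with 49.1. Just inside the ratio limit lay XLOC_060461 at 20.1, XLOC_045951 at 20.3 and XLOC_024153 at 20.5. Just outside lay XLOC_032302 at 19.9, XLOC_037060 at 19.8 and XLOC_005474 at 19.8, each with flower buds as its highest contrast library.

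The one library that the choice did not use gave levels as low as the contrast libraries. In the library labelled R2 the members ran from a listed 0, at 8 loci, to 92.6 FPKM, with a median of 0.193. Of the 179 members, 130 (72.6%) were below 1 FPKM, 32 lay from 1 to below 5, and 17 had at least 5. All 179 were at least 4-fold lower there than in early roots, against 16.0% of all loci tested. Of the 2002 non-members with at least 50 FPKM in early roots, 676 were lower by that much and 29 higher. The log2 ratio of the members, with 1 FPKM added, ran from -10.77 to -4.13 with a median of -6.34. The median was 0.24 over all 16269 loci tested and -1.02 over those 2002 non-members. To late leaves the median log2 ratio of the 179 members was 0.0023, against 0 over all 31187 loci of the table. Of the members, 155 were below 5 FPKM in both of these libraries. The 24 that reached that level in either had a median of -0.50, against -0.03 over all 13837 loci that did. The set was chosen for a high level in early roots, so a lower value in another library is in part built in. The rule also capped late leaves, which the library labelled R2 resembled, so its low values are largely built in as well.

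The 20-fold limit can be read in this library as well. The rule had already held late leaves, which the library labelled R2 resembled, to that limit. The outcome was thus largely fixed by the choice. The limit was passed by 178 of the 179 members. The share was 18.6% over all 2181 loci that reached 50 FPKM in early roots and 11.4% over the 2002 non-members among them. The member that missed it was XLOC_062208 (chromosome 8, 23853215 to 23854479), with 189 FPKM in early roots, 9.82 in the library labelled R2, 7.70 in flower buds and 6.18 in late leaves. Its ratio of early roots to the library labelled R2 was 17.6. In 23 members the library labelled R2 was above all 6 contrast libraries, and in 156 it was not.

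The members with the highest levels in that library also had high levels in leaves for this set. After XLOC_000386, they were XLOC_041840 with 30.5 FPKM, XLOC_003388 with 29.7, XLOC_029279 (chromosome 3, 7181079 to 7184168) with 19.8 and XLOC_037037 (chromosome 4, 22304158 to 22309522) with 12.7. In late leaves these 4 had 32.1, 47.9, 19.9 and 19.5 FPKM. Their levels in early roots were 732, 1156, 432 and 595 FPKM. Across the 179 members, which share the libraries and are not independent, the Pearson r of the log2 levels in the library labelled R2 was 0.955 with late leaves, 0.774 with early leaves and 0.542 with early roots. The rule bounded early roots from below and capped both leaf libraries. The ranges behind these r values were thus shaped by the choice, and the values are description only.

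Leaf stage gave a further reading. In 34 members the leaf libraries differed at least 2-fold, 19 of them higher after flowering and 15 lower. In 29 of the 34 (85.3%) the library labelled R2 was nearer to late leaves than to early leaves, a share near the 90.9% found over all 4483 loci whose leaf libraries differed that much. XLOC_060020 (chromosome 8, 23353881 to 23355003), for example, had 567 FPKM in early roots, 14.9 in early leaves, 0.331 in late leaves and 0.0889 in the library labelled R2. XLOC_058416 (chromosome 8, 2129612 to 2130615) had 595 FPKM in early roots, 1.05 in early leaves, 7.88 in late leaves and 5.88 in the library labelled R2. Both were named after their values were seen, as extremes of the leaf stage difference among the members.

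The rule holds leaf levels down and leaves the library labelled R2 free, so the pair was read again in loci chosen without leaves. Dropping both leaf libraries from the rule gave 293 loci, which are the 179 members and 114 more. The 114 had a median of 189 FPKM in early roots, 13.4 in early leaves, 23.2 in late leaves and 16.5 in the library labelled R2. None of the 293 was at least 4-fold higher or lower in the library labelled R2 than in late leaves, among the 118 that had at least 5 FPKM in either; over all loci 0.130% were higher and 0.188% lower. Of the 114, 91 were at least 4-fold lower in the library labelled R2 than in early roots and 2 were higher, where 16.0% of all loci tested were lower and 14.1% higher. Of the 2002 non-members with at least 50 FPKM in early roots, which include the 114, 676 were lower and 29 higher. Dropping the flower libraries instead added 28 loci and dropping the seed libraries added 29. Of the 3 organs, leaves thus kept the most loci out of the set.

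**Figure D3:**
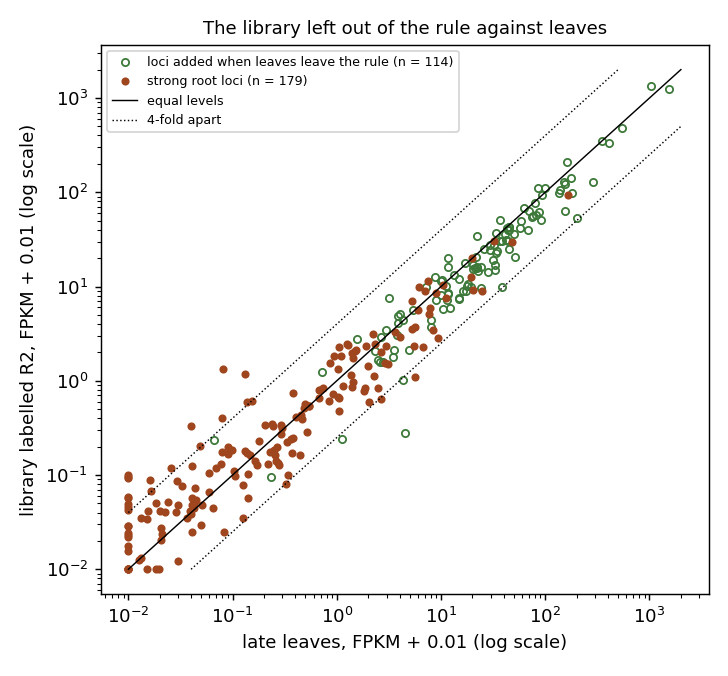
Level in the library labelled R2 against late leaves (both FPKM + 0.01, log scales) for the 179 strong root loci (filled) and the 114 loci added when leaves leave the rule (open). The solid line marks equal levels and the dotted lines 4-fold differences; none of the 118 points that reach 5 FPKM on an axis passed the 4-fold limit once 1 FPKM is added to each value.

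Between the stages of the other organs few members had enough signal to be read. From flower buds to flowers 22 members reached 5 FPKM in either library, of which 0 were at least 4-fold higher and 1 was lower, where 0.730% of all loci tested were higher and 0.436% lower. From milk grains to mature seeds 17 members did so, of which 1 was higher and 2 were lower, against 18.6% and 7.38% of all loci tested. Between early and late leaves 30 members did so, of which 3 were higher and 5 lower, against 3.88% and 2.50%. The other 149 to 162 members were below the limit in both libraries of the pair.

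The members lay on all 12 chromosomes. The largest number was 25 on chromosome 1 and the smallest 8 on chromosome 7. As a share of the loci on each chromosome, they made up between 0.336% on chromosome 7 and 0.846% on chromosome 9. Of those loci that reached 50 FPKM in early roots, they made up 17.2% on chromosome 12 and 15.9% on chromosome 11, and 5.06% on chromosome 7.

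A position of its own was given for 150 members (83.8%), against 76.7% of the other loci with at least 50 FPKM in early roots and 67.0% of all loci. The other 29 lay in spans shared with further loci, 21 of them with 1 other locus. XLOC_019038 was one of 17 loci that share a span on chromosome 12 (23382983 to 23518497). It had 1021 FPKM in early roots, 2.41 in flower buds, 2.16 in milk grains and 0.396 in the library labelled R2. A second member in that span, XLOC_021108, had 88.3 FPKM in early roots. Strand was not kept in these libraries, so a locus may not be separable from one that overlaps it on the opposite strand.

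Members with a position of their own had short spans. Their median span was 1669.5 bases, with quartiles of 1045 and 2345 bases. The other 1535 loci with at least 50 FPKM in early roots had a median of 2997 bases, and all 20892 loci with a position of their own one of 3320. Spans over 5000 bases were found in 8 members (5.33%), against 19.0% of the other loci at that root level. The difference was there at each root level. From 50 to below 100 FPKM the median span was 1731 bases in members and 3246.5 in other loci, from 100 to below 300 FPKM it was 1684 and 2926.5, and at 300 FPKM or more it was 1484 and 2411. A span covers exons and introns together, and the table does not separate them.

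The short spans were not confined to the root. With the same 2 limits turned to another organ and the library labelled R2 left out, 219 flower, 291 seed and 90 leaf loci were found. A position of its own was given for 84.9%, 79.7% and 61.1% of them, in that order. The median span of those with a position of their own was 1486 bases for the flower, 1534 for the seed and 2837 for the leaf. The strong root loci were thus nearer to the flower and seed loci, with no test of these differences, and the leaf loci had the longest spans of the 4 sets.

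**Figure D4:**
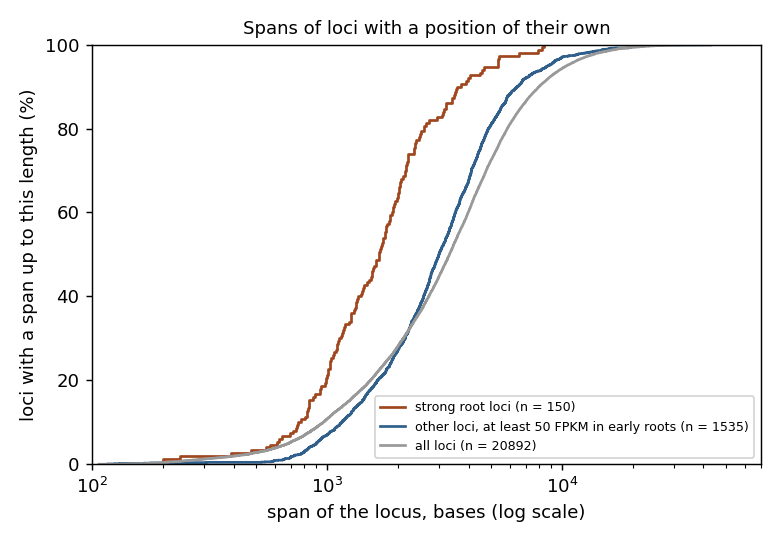
Cumulative share of loci (%) by span in bases (log scale), for loci with a position of their own. The curve of the 150 strong root loci lies to the left, with a median of 1669.5 bases against 2997 for other loci with at least 50 FPKM in early roots and 3320 for all loci.

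Many members lay next to each other. Of the 150 members with a position of their own, 27 (18.0%) had another member as the next locus on the chromosome, where members made up 0.718% of all such loci. The same share was 28.0% for the flower, 15.9% for the seed and 14.5% for the leaf loci, so it was not particular to the root. When members with at most 100 kb between them were joined, 57 members (31.8%) fell into 22 runs and 122 stood alone. There were 12 runs of 2 members, 8 of 3, 1 of 4 and 1 of 5. Flower, seed and leaf loci chosen with the same limits had 42.0%, 32.6% and 32.2% of their loci in such runs. The share of the strong root loci thus lay close to those of the seed and leaf loci and below that of the flower loci, with no test of these differences. Reads of near-identical neighbouring copies may be divided between them in counting, so the level of a single locus in a run is less certain than that of the run. XLOC_059883 and XLOC_059884 on chromosome 8, which form a run of 2, both had a span of 201 bases and equal levels in every library. They are counted as separate members here, though whether they were measured separately is unknown.

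The run with the highest levels lay on chromosome 2. XLOC_026508 (22477781 to 22478946) had 328 FPKM in early roots, XLOC_026511 had 2082 and XLOC_026513 (22529078 to 22531434) had 808. In milk grains they had 1.44, 10.4 and 2.88 FPKM, and this was the highest contrast library for each. Their levels in the library labelled R2 were 0.0290, 0.193 and 0.156 FPKM. The 5 other loci between them had no more than 2.24 FPKM in early roots, so the members were set apart from the loci around them.

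The run of 4 lay within 45.1 kb of chromosome 10 (16581495 to 16626573). XLOC_011167 had 71.2 FPKM in early roots, XLOC_009322 had 110, XLOC_011170 had 182 and XLOC_011173 had 56.6. In milk grains they had 0.377, 0.925, 2.15 and 0.706 FPKM. All 4 were listed at 0 in flowers and in mature seeds and had no more than 0.0846 FPKM in the library labelled R2. At all 4 loci milk grains were thus the highest contrast library. The 3 other loci inside the run had between 1.37 and 7.07 FPKM in early roots.

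The run of 5 on chromosome 1 (28921497 to 29048031) was less uniform. XLOC_002219 had 97.9 FPKM in early roots, XLOC_005593 had 252, XLOC_002227 had 134, XLOC_002229 had 65.6 and XLOC_002232 had 51.0. The highest contrast library was milk grains for 3 of them, with 2.98, 0.483 and 0.0172 FPKM. It was late leaves for XLOC_005593, with 6.72 FPKM, and flowers for XLOC_002227, with 1.76. This run also held 9 loci that were not members, with between 0 and 81.7 FPKM in early roots.

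**Figure D5:**
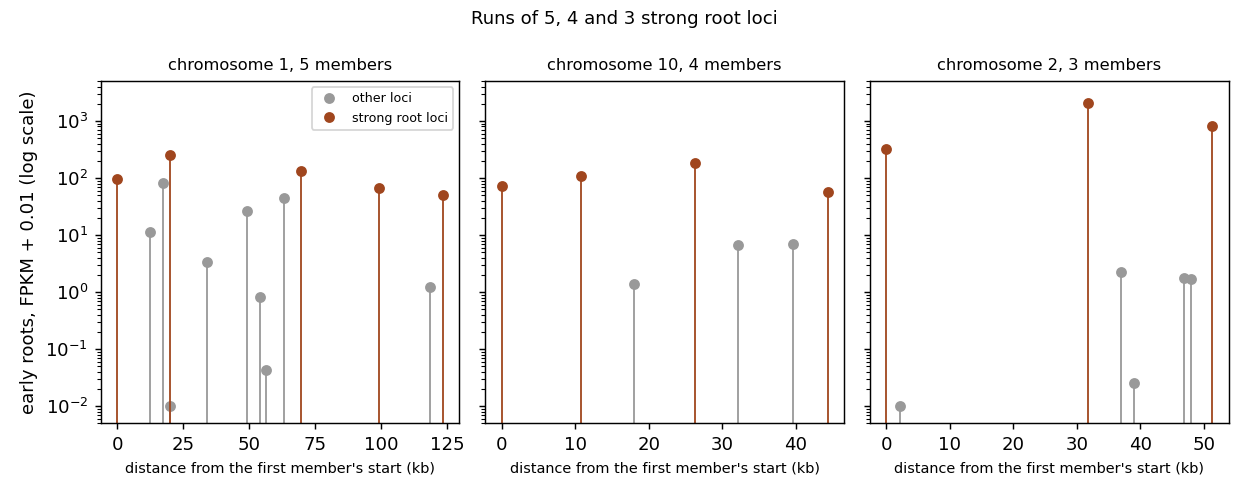
Level in early roots (FPKM + 0.01, log scale) of every locus in the run of 5 strong root loci, the run of 4 and the run of 3 with the highest levels, by distance from the start of the first member (kb). Members stand at 51.0 FPKM or more, and the highest locus between them that is not a member has 81.7 FPKM, on chromosome 1.

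Other runs of 3 members differed in width, from 5.84 to 213.5 kb. On chromosome 12, XLOC_019584, XLOC_019585 and XLOC_019586 lay within 8.46 kb and had 254, 176 and 231 FPKM in early roots. Each had late leaves as its highest contrast library, at 1.26, 0.393 and 1.02 FPKM. On chromosome 7, XLOC_053034, XLOC_053039 and XLOC_053044 lay within 67.1 kb and had 303, 152 and 185 FPKM in early roots and no more than 0.311 FPKM in any contrast library, which was milk grains for each. On chromosome 9, XLOC_066808, which has the highest ratio of the set, was the last of 3 members within 5.84 kb, after XLOC_066806 with 247 FPKM and XLOC_066807 with 105. These runs were chosen for naming after their values were seen. Of the 15 pairs of members that were direct neighbours, 7 (46.7%) had the same highest contrast library. The share was 20.3% over all 15576 pairs of the 177 members that have one. In early roots 9 of the 15 pairs (60.0%) were within 2-fold of each other, against 43.7% of all pairs of the 179 members. The highest contrast level was far below 1 FPKM at some of these loci, such as XLOC_066807 with 0.0287 FPKM, and such levels have no stated precision. Reads of near-identical copies may also be divided between neighbours, and the likeness of neighbours was not tested.

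Loci next to a member that are not members themselves could not meet the rule, by choice. The 263 loci with a position of their own of this kind had a median of 3.96 FPKM in early roots, against 3.40 for all 20742 non-members with such a position. A level of at least 5 FPKM in roots and at least 4 times the highest contrast library, with 1 FPKM added, was found in 32 of the 263 (12.2%) and in 3.92% of all. Their median in the library labelled R2 was 1.66 FPKM, against 3.17. The median of their highest level in the contrast libraries was also lower, at 7.98 FPKM against 11.6.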

How the data were processed

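Expression was measured in 8 non-directional, paired-end poly(A) libraries, 1 per group. The deposited table gives 1 FPKM value per locus and library, made by the authors. The submitters' processing notes list TopHat, Cufflinks and Cuffdiff, with no version or setting. The lowest row maximum was 1.00001 FPKM, so weaker loci are not analysed here. Columns were matched to groups by the sample titles.

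The members and the rules for naming loci were chosen with earlier results of these data known. Named were the 10 members with the highest root level, the 5 with the highest ratio, the 5 highest in the library labelled R2, 3 loci on each side of both limits and the 3 longest runs (of equal runs, the one with the highest summed root level); other named loci were chosen after their values were seen. Root and leaf marker genes had been listed by name; none could be matched. A locus was called different between 2 libraries at a log2((FPKM + 1)/(FPKM + 1)) of at least 2 in size where the higher one reached 5 FPKM. Exact zeros are reported as listed at 0. With 1 library per group there is no replicate error and no p-value was computed. Read depth is unknown: among 1108 loci below 0.15 FPKM in both early roots and early leaves, no common step was found (at most 1.35% of their log2 ratios fell in any bin of width 0.02). Calculations used Python 3.11.15, pandas 2.3.3 and NumPy 2.4.6, and the rules were tested on simulated data. Alternatives were another pseudocount, scaling, level, ratio, set of contrast libraries, position filter, call filter and gap.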

Additional observations from a re-analysis of the deposited data

Results flagged for a closer look

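At 3 strong root loci the level was at least 4-fold higher in late than in early leaves. It was at least 4-fold lower in the library labelled R2 than in early roots. XLOC_058416 had 1.05 FPKM in early and 7.88 in late leaves, beside 595 FPKM in early roots and 5.88 in the library labelled R2. XLOC_016371 had 0.512 and 5.21 FPKM in these leaf libraries, beside 153 and 3.49 FPKM. It shares its whole span with another member, XLOC_017214, which had 0.304 and 2.94 FPKM in the leaf libraries, beside 132 and 2.33 FPKM. Strand was not kept, so the levels of these loci may not be separable. XLOC_065978 had 0.623 and 5.66 FPKM in the leaf libraries, beside 188 and 3.74 FPKM. All 179 members were at least 4-fold lower in the library labelled R2 than in early roots, so these loci stand out by their leaf values alone. Another 5 members were at least 4-fold lower in late leaves than in early leaves as well. Over all loci tested, 3.88% were higher in late leaves and 2.50% lower. With 1 library per group these differences were not tested. The library labelled R2 was close to late leaves over all loci. Its difference from early roots is thus not read as a change between stages of roots.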

How the results depend on the processing

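The set of 179 members became 110 with a root level of at least 100 FPKM, 283 with a ratio of at least 10, 112 with a ratio of at least 40 and 293 without leaf libraries in the rule. The number of members at least 4-fold lower in the library labelled R2 than in early roots was then 110, 283, 112 and 270. The share of summed root FPKM, 8.65% in the main set, was 15.1% with a ratio of at least 10, 4.56% with a ratio of at least 40 and 15.1% without leaf libraries. The median log2 ratio of the library labelled R2 to early roots, -6.34 in the main set, was -8.47 with a pseudocount of 0.1, -5.78 and -6.99 with a root level of at least 20 and 100 FPKM, -5.87 and -6.72 with a ratio of at least 10 and 40, and -5.72 without leaf libraries. The median log2 ratio of that library to late leaves, 0.0023, was -0.0072 with a ratio of at least 10 and -0.032 without leaf libraries. These settings change which loci are in the set or the size of the ratio by construction. In the other 61 cases, which include both scalings, loci with a position of their own, no call filter, gaps of 50 and 200 kb and, added after seeing the data, the rule without flower or seed libraries or with the library labelled R2, counts and shares stayed within 1.5 times and medians within their interval over loci. That interval treats the loci as independent, though they share the libraries, and holds no replicate error. Within the limit of 1.5 times, the size of the set still changed. It was 227 loci with median-of-ratios scaling, 196 with upper-quartile scaling and 254 with a root level of at least 20 FPKM. The share of summed root FPKM was 10.65% with median-of-ratios scaling. Some cases could not move: dropping the call filter leaves the members, their share and the medians as they were. No member was at least 4-fold higher in that library than in late leaves under any of these settings. Median-of-ratios scaling moved the median log2 ratio of that library to early roots, over all loci tested, from 0.24 to -0.15, and upper-quartile scaling to 0.05; the highest log2 ratio among the same 179 members was then -4.48 and -4.30. No paired analysis was possible because each group held 1 library. Depth is unknown, so levels far below 1 FPKM have no stated precision.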

Other observations

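Zeros were listed for 40 members in at least 1 of the 6 contrast libraries. At 2 members, XLOC_024931 on chromosome 2 with 84.0 FPKM in early roots and XLOC_052284 on chromosome 6 with 87.8, every other library was listed at 0, and both lay in spans shared with other loci. Among the 82 members below 1 FPKM in all 6 contrast libraries, 80 were below 1 FPKM in the library labelled R2 as well, and the highest had 1.83 FPKM. Their summed level in that library was 0.139% of their sum in early roots, against 0.115% in late leaves, 0.0950% in early leaves and 0.152% in milk grains.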
